A study of Arabidopsis thaliana with 8 samples.

Results

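The plastid genome of Arabidopsis is mapped as a circle in which a large single copy region (LSC) and a small single copy region (SSC) are held apart by 2 copies of an inverted repeat. Contacts joining the LSC to the SSC were taken from a contact table of the plastid chromosome (Pt) of TAIR10, divided into bins of 1 kb. The members were the bin pairs with 1 bin in the LSC (1 to 84000) and the other in the SSC (111001 to the repeat). Each of 84 LSC bins was thus paired with each of 17 SSC bins, which gives 11.8% of all bin pairs of the map. The choice was by position, though earlier results of these data were known when it was made.

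As background, recombination between the inverted repeat copies is known to turn the SSC round relative to the LSC, so that plastid DNA occurs as a pair of orientation isomers. In the orientation of the map, the left end of the SSC (low coordinates, at ndhF) lies across the repeat from the right end of the LSC, and the right end of the SSC (at ycf1) lies across the other repeat copy from the left end of the LSC. In the flipped isomer these neighbours are exchanged. The SSC carries most plastid ndh genes, which encode subunits of the NADH dehydrogenase-like complex that feeds electrons into cyclic flow, and ycf1, which encodes a component of the import machinery of the inner envelope. The LSC carries most plastid genes for photosystems, RNA polymerase and ribosomal proteins.

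Hi-C, in which DNA ends lying close together are ligated and the junctions counted by sequencing, was applied to chloroplast membrane samples from leaves of wild-type Col-0 plants, 14 days old. The 4 libraries here called EGS 1 to 4 carried the label of crosslinking with EGS, a bifunctional amine-reactive crosslinker, and formaldehyde, and the 4 called nox 1 to 4 were labelled non-crosslinked and served the study as negative controls. The protocol text, which gives EGS at 5 mM (45 min) and formaldehyde at 4% (4 h), is the same for all 8 samples, so only the treatment label and title separate the groups. Nothing in the labels says that replicates came from separate plants, so p-values measure the spread between these libraries, which may be technical. The table holds DNA contacts and no expression values, so the leaf label had no marker gene to be checked against.

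The libraries held 351828 to 543800 contacts in EGS and 357017 to 708524 in nox, most of them within 5 kb. Contacts over 5 kb, with the images of a repeat bin in both copies taken as the same place, numbered 52963, 29091, 17530 and 10932 in EGS 1 to 4, against 50513, 32331, 2643 and 4224 in nox 1 to 4. Nox 3 and 4 thus stand apart as the libraries with the fewest long contacts, and the main comparisons are also given without them.

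LSC-SSC contacts made up a smaller share of contacts over 5 kb in EGS than in nox libraries. They numbered 6331, 3946, 2080 and 1489 in EGS 1 to 4, against 10594, 6866, 758 and 1088 in nox 1 to 4. This was 1.04 to 4.43 contacts per bin pair in EGS libraries and 0.531 to 7.42 in nox libraries. Between 37 and 528 LSC-SSC pairs had no contact in an EGS library, against 12 to 903 in a nox library. As a share of all contacts they were 1.16%, 0.758%, 0.565% and 0.423% in EGS 1 to 4, against 1.5%, 1.11%, 0.212% and 0.266% in nox 1 to 4. The groups overlapped on this scale, and the spread between replicates exceeded their difference of -0.043 percentage points (p = 0.943, two-sided exact permutation).

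Among contacts over 5 kb, LSC-SSC contacts were 11.95%, 13.6%, 11.9% and 13.6% in EGS 1 to 4, against 20.97%, 21.2%, 28.7% and 25.8% in nox 1 to 4. Every EGS library lay below every nox library. LSC-SSC pairs are 13.3% of all bin pairs over 5 kb, so the EGS libraries were near that share of pairs and the nox libraries above it. Group means were 12.8% ± 0.973 for EGS and 24.2% ± 3.73 for nox (SD, n = 4 each), a difference of -11.4 percentage points (two-sided exact permutation, p = 0.0286, which is the lowest value 4 against 4 libraries can give, and 0.0429 adjusted over 6 library measures). Without nox 3 and 4 the difference was -8.35 points. The counting error of single libraries was small beside this, with 95% Wilson intervals of 12.99% to 14.3% for EGS 4 and 26.99% to 30.4% for nox 3. These intervals cover counting error only.

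The share depends on what else lies over 5 kb, so LSC-SSC pairs were also set against LSC-LSC pairs at the same circular distances, 28 to 77 kb. The ratio of mean contacts per pair was 0.909, 0.989, 0.904 and 1.00 in EGS 1 to 4, against 1.26, 1.24, 1.59 and 1.47 in nox 1 to 4. Both kinds of pair were thus about equally frequent in EGS libraries, and LSC-SSC pairs were the more frequent in nox libraries. Means were 0.951 ± 0.0528 for EGS and 1.39 ± 0.168 for nox (SD, n = 4 each; two-sided exact permutation, p = 0.0286, adjusted 0.0429). Without nox 3 and 4 the difference was -0.299. When unequal bin totals were balanced out of the map by iterative correction, the ratio was 1.04 in EGS and 1.02 in nox. The difference was then 0.019 (p = 0.314, two-sided exact permutation). Balancing evens the bin totals, on which this ratio largely rests, so the balanced value is not a separate test of the call.

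**Figure D1:**
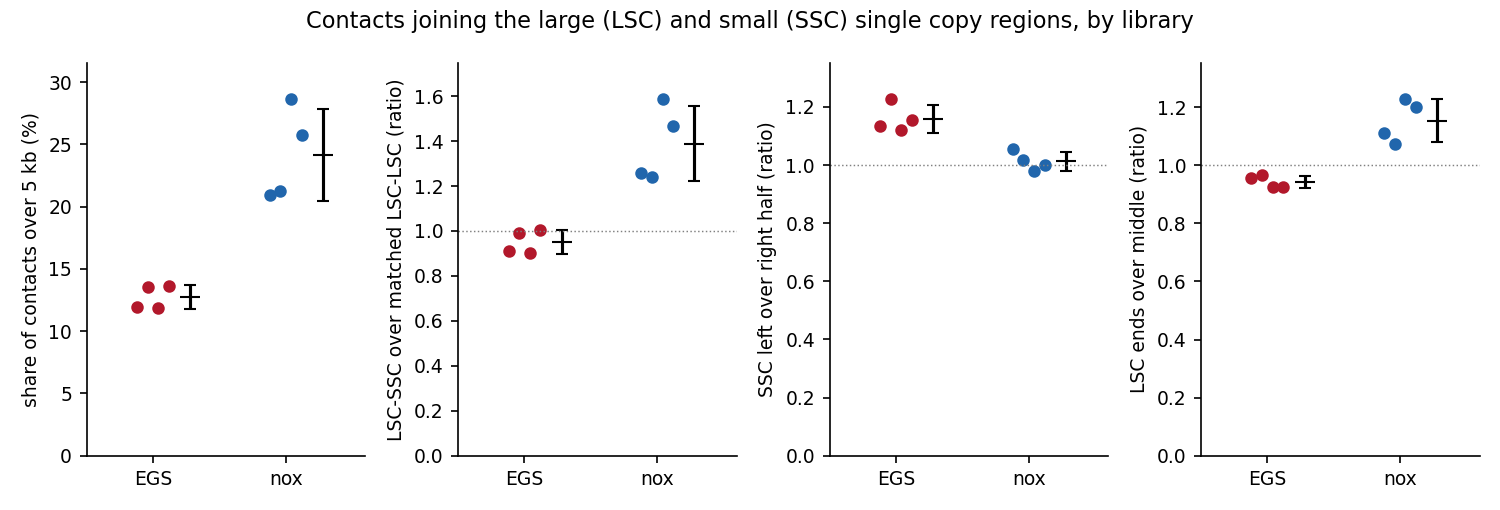
Measures of LSC-SSC contacts, 1 point per library, with EGS (red) left of nox (blue) and bars for the mean ± SD of 4 libraries. The y axes give the share of contacts over 5 kb in percent, the ratio to LSC-LSC pairs of equal distance, the contacts of the SSC's left 8 bins over its right 8, and contacts per pair of the LSC's ends over its middle; in each panel the groups do not overlap, and dotted lines mark a ratio of 1.

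The SSC was read first by position, as the contacts of each of its 17 bins with the whole LSC. An even spread would give each bin 5.88% of a library's LSC-SSC contacts. In EGS libraries the mean shares ran from 3.48% to 7.63%, a range of 2.19-fold, against 2.72% to 9.61% or 3.53-fold in nox libraries. The bin with the highest mean share in EGS was 116001 to 117000 (ndhD), and the bin with the lowest was 126001 to 127000 (ycf1). That ycf1 bin had the highest share in nox libraries, where the lowest belonged to 123001 to 124000 (ndhH, rps15, ycf1). The shares of 13 of 17 bins did not overlap between the groups. A lack of overlap was common on the map. Scaled on contacts over 5 kb, it held for 53.1% of all 465 totals of a bin with a region.

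The ycf1 bins from 124001 to 127000 and the rpl32 bin took less of the LSC contacts in EGS. Bin 126001 to 127000 had 219, 146, 65 and 54 contacts with the LSC in EGS 1 to 4, against 868, 618, 85 and 109 in nox 1 to 4. As shares these were 3.46%, 3.70%, 3.12% and 3.63% in EGS, against 8.19%, 9.0%, 11.2% and 10.02% in nox, with no overlap. The neighbouring ycf1 bins followed, with mean shares of 4.27% in EGS and 8.74% in nox at 125001 to 126000, and of 5.19% and 8.53% in the same order at 124001 to 125000. The rpl32 bin, 113001 to 114000, codes for a protein of the large ribosomal subunit and had 5.02% ± 0.672 in EGS and 8.94% ± 0.740 in nox (SD, n = 4 each). Bins 114001 to 116000, with trnL, a transfer RNA gene, ccsA, needed for assembly of c-type cytochromes, and part of ndhD, had 5.00% and 5.71% in EGS, against 6.76% and 6.73% in nox.

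Other stretches took more of the LSC contacts in EGS. The ndhD bin at 116001 to 117000 had 489, 316, 150 and 113 contacts in EGS 1 to 4, against 466, 302, 22 and 42 in nox 1 to 4. Its shares were 7.72%, 8.01%, 7.21% and 7.59% in EGS, all above the 4.399%, 4.398%, 2.90% and 3.86% in nox. Bin 122001 to 123000, at the boundary of ndhA and ndhH, had 7.43% ± 0.975 in EGS and 3.48% ± 1.02 in nox, and bin 123001 to 124000 had 5.9% ± 0.395 in EGS and 2.72% ± 0.405 in nox (SD, n = 4 each). The last SSC bin, from 127001, within ycf1 and next to the repeat, had 7.32% ± 1.03 in EGS and 3.69% ± 0.444 in nox. Within the ycf1 gene, high and low bins therefore stood side by side, and their order was opposite in the 2 groups. At the other border the ndhF bin 112001 to 113000 had 7.58% in EGS and 5.28% in nox.

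**Figure D2:**
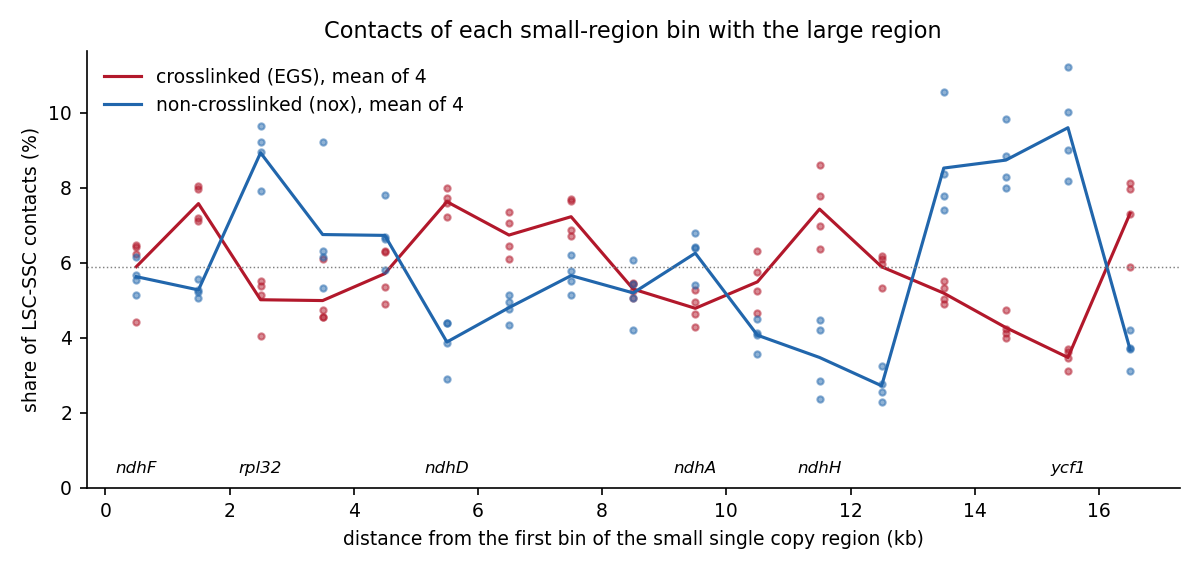
Share of each library's LSC-SSC contacts (percent, y axis) held by each of the 17 SSC bins, against distance from the first SSC bin in kb (x axis); points are libraries and lines the means of 4 EGS (red) and 4 nox (blue) libraries, and the dotted line is the even share. The nox line peaks at the rpl32 bin (8.94%) and over ycf1 (9.61%), where the EGS line is at 5.02% and 3.48%.

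For a test across the map, the contacts of every bin with the LSC, the SSC and the repeat (pairs over 5 kb) were fitted together with edgeR's quasi-likelihood test. Of all 465 such totals, 62.8% passed an adjusted threshold of 0.05 between EGS and nox: 31.2% were higher in EGS and 31.6% were lower. Of the 101 totals that are LSC-SSC sums, 71 differed, 1 higher and 70 lower, so the share that passed, 70.3%, was near the background while the calls were nearly all in 1 direction. Without nox 3 and 4, 72 differed, 1 higher and 71 lower, a fit for which the share over all totals was not taken. The median log2 change was -0.87 over these 101 and 0.047 over all 465. The 101 totals count the same contacts from either side and are not independent. In 63 of the 101 the libraries of the groups did not overlap, against 53.1% of all totals.

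On this scale, relative to all contacts over 5 kb, 13 of 17 SSC bins fell in EGS and 4 did not pass the test, where 62.8% of all 465 totals passed and 31.6% fell. The largest decreases were at the ycf1 bins 126001 to 127000, at a log2 change of -2.33 with an SE of 0.16 (adjusted p = 8.49e-12 by edgeR), and 125001 to 126000, with -1.91, and at the rpl32 bin, with -1.72. The ycf1 bin from 126001 had -2.09 and the rpl32 bin -1.54 when nox 3 and 4 were left out. The ndhD bin at 116001 to 117000 had a log2 change of -0.00078 (adjusted p = 0.995), and the bins from 122001, 123001 and 127001 had 0.029, 0.18 and 0.032. Scaled on LSC-SSC contacts alone, which removes the overall deficit, 7 SSC bins were higher and 7 lower in EGS. The same ndhD bin then had a log2 change of 0.80 (edgeR adjusted p = 2.48e-11), the bin from 123001 had 0.97, and the ycf1 bin from 126001 had -1.47 (adjusted p = 1.15e-31). The edgeR test pools the spread between libraries over all totals in a fit, and here these totals count the same contacts from either side. Every edgeR p-value on this scale rests on that pooling and not on the 4 libraries of each group alone. Bins from 112001, 117001, 118001 and 121001 fell on the scale of all long contacts but had log2 changes of 0.43, 0.40, 0.21 and 0.29 on the scale of LSC-SSC contacts alone, the one from 118001 with an adjusted p of 0.0825.

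The left and right parts of the SSC differed in a like manner. The left 8 SSC bins had 1.13, 1.23, 1.12 and 1.15 times the LSC contacts of the right 8 in EGS 1 to 4, against 1.06, 1.02, 0.978 and 1.00 in nox 1 to 4. The means were 1.16 ± 0.0486 in EGS and 1.01 ± 0.0323 in nox (SD, n = 4 each; two-sided exact permutation, p = 0.0286, adjusted 0.0429). The difference was 0.146, and 0.122 without nox 3 and 4. This call did not hold without the 2 bins at each border of a region (a difference of 0.041, adjusted p = 0.514 by exact permutation). The balanced map gave a difference of -0.050. Balancing evens bin totals, of which this ratio is made, so that value could not test the call.

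The LSC was then read by position, as the contacts of each of its 84 bins with the SSC, for which an even spread gives 1.19%. Mean shares ran from 0.545% (trnC, 27001 to 28000) to 1.95% (psbA and trnK, 1001 to 2000) in EGS, and from 0.369% (rpoB, 25001 to 26000) to 3.52% (petL and petG, 65001 to 66000) in nox. The shares of 33 of 84 bins did not overlap between the groups, against 53.1% of all 465 totals on the scale of contacts over 5 kb. On the scale of all contacts over 5 kb, 1 LSC bin rose in EGS, 57 fell and 26 did not pass the test. Of all 465 totals, 62.8% passed, 31.2% higher and 31.6% lower in EGS, so it was the direction more than the number of calls that set these bins apart. On the scale of LSC-SSC contacts alone, 23 rose and 20 fell.

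The largest decrease was in the bin of petL and petG, which encode small subunits of the cytochrome complex between the photosystems. It had 48, 27, 14 and 6 contacts with the SSC in EGS 1 to 4, against 280, 171, 38 and 43 in nox 1 to 4. Its share of LSC-SSC contacts was 0.403% to 0.758% in EGS, below the 2.49% to 5.01% in nox. The log2 change was -3.06 with an SE of 0.26 (adjusted p = 1.03e-10 by edgeR), with -2.72 when nox 3 and 4 were left out and -2.18 on the scale of LSC-SSC contacts alone. The transfer RNA gene trnC, in bin 27001 to 28000, followed with 39, 17, 11 and 9 contacts in EGS, against 182, 132, 14 and 24 in nox, a log2 change of -2.67. The bin of atpH (13001 to 14000), a subunit of the membrane ring of ATP synthase, had -2.27, and that of rpl16 and rps3 (82001 to 83000), genes for ribosomal proteins, had -1.89. The bin of rps18 and rpl20 (68001 to 69000), also ribosomal protein genes and among the highest in nox, had -1.77.

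The single LSC bin that rose was 25001 to 26000, within rpoB, which encodes the beta subunit of the plastid RNA polymerase. It had 90, 49, 31 and 21 contacts with the SSC in EGS 1 to 4, against 48, 36, 1 and 4 in nox 1 to 4. Its shares of LSC-SSC contacts, 1.24% to 1.49% in EGS, lay above the 0.132% to 0.524% in nox. The log2 change was 0.75 with an SE of 0.21 (adjusted p = 0.00319 by edgeR), with 0.72 when nox 3 and 4 were left out and 1.14 within the 4 shallower libraries, where it did not pass the test (adjusted p = 0.130).

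Among the bins with the highest level in EGS, that of psbA, which encodes a reaction centre protein of photosystem II, and trnK had 108, 83, 51 and 23 contacts with the SSC in EGS 1 to 4, against 102, 62, 8 and 15 in nox 1 to 4. Its share was 1.54% to 2.45% in EGS, above the 0.903% to 1.38% in nox. The bin of the transfer RNA gene trnV (51001 to 52000) had 1.90% ± 0.251 in EGS and 0.836% ± 0.295 in nox, and that of psbD (32001 to 33000), for the other reaction centre protein of photosystem II, 1.87% ± 0.327 in EGS and 0.845% ± 0.233 in nox (SD, n = 4 each). None of these 3 bins passed the test on the scale of all long contacts, with log2 changes of 0.10, 0.21 and 0.089. On the scale of LSC-SSC contacts alone they had 0.92, 1.01 and 0.83 (edgeR, adjusted p = 1.27e-06, 7.62e-08 and 9.22e-06).

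**Figure D3:**
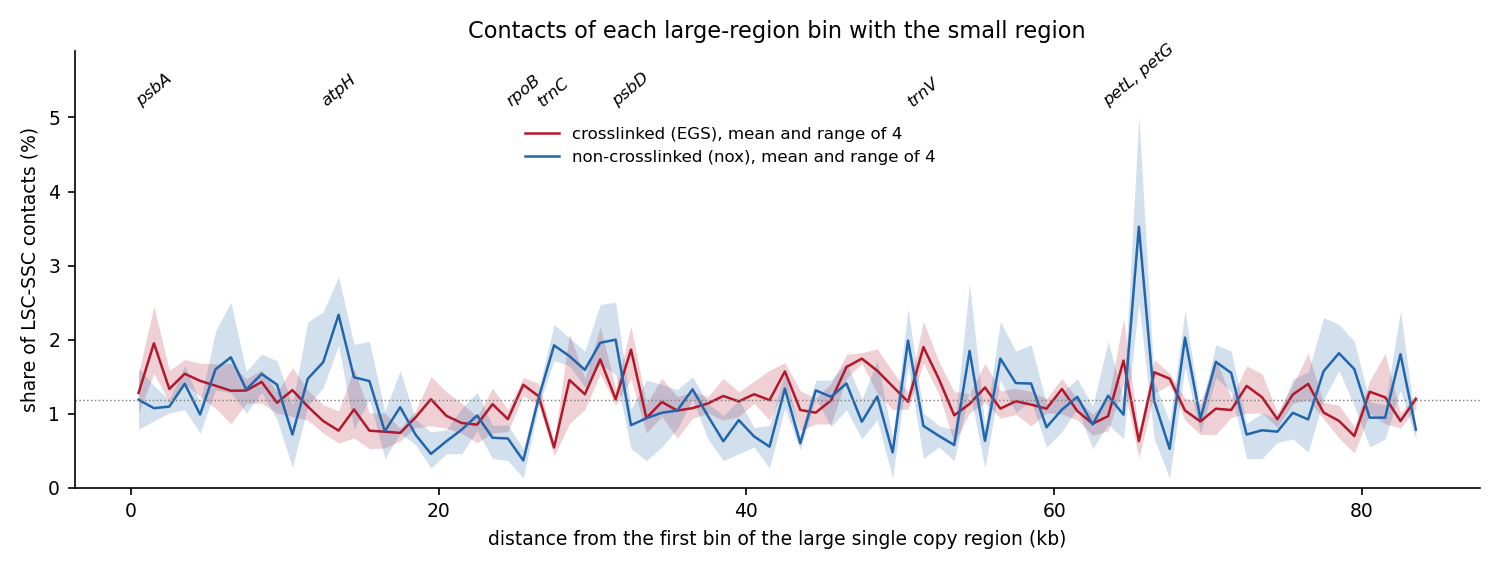
Share of each library's LSC-SSC contacts (percent, y axis) held by each of the 84 LSC bins, against distance from the first LSC bin in kb (x axis), as means (lines) and ranges (shading) of 4 EGS (red) and 4 nox (blue) libraries, with the even share dotted. The nox line has its highest point at the petL and petG bin (3.52%), where the EGS line is at 0.630%.

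The LSC bins were counted by the genes they overlap. Over all 84 LSC bins, 1 was higher and 57 lower in EGS on the scale of all long contacts, with a median log2 change of -0.87. Over all 465 totals of the map, 31.2% were higher and 31.6% lower. A list of highly transcribed photosynthesis genes held psbA, psbB, psbC, psbD, psbE, psbI, psbK, psaA, psaB, petB, atpB, atpE and rbcL (13 genes, 23 bins). It leaves out other photosynthesis genes, among them those of the petL and petG bin and the atpH bin, which fell on both scales (-2.18 and -1.38 on that of LSC-SSC contacts alone), so its counts are those of the chosen genes. Of its bins, 0 were higher and 11 lower in EGS on the scale of all long contacts, with a median of -0.37. On the scale of LSC-SSC contacts alone, 11 of these 23 bins were higher and 2 lower, with a median of 0.40, against 23 higher and 20 lower of 84 and a median of -0.076. The higher ones included bins of psaA (40001 to 41000), for a core protein of photosystem I, with 0.80, and of atpE and atpB (52001 to 53000), for ATP synthase subunits, with 0.89. The 2 lower bins lay at rbcL, for the large subunit of Rubisco, with -0.73 at 54001 to 55000, shared with atpB, and -0.52 at 56001 to 57000, whereas the rbcL bin between them, 55001 to 56000, had 0.70.

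The medians of the other lists were closer to that of all LSC bins on the scale of all long contacts, -0.87. Of all 84 LSC bins, 1 was higher and 57 lower on that scale, against 31.2% higher and 31.6% lower of all 465 totals. Ribosomal protein genes (15 genes, 15 bins) had 0 bins higher and 13 lower on the scale of all long contacts, with a median of -1.07, and 2 higher and 7 lower on that of LSC-SSC contacts alone, with a median of -0.28. The 14 bins of RNA polymerase genes had 1 higher and 9 lower (median -0.94), and 4 higher and 4 lower on the narrower scale (median -0.14). The 22 bins of transfer RNA genes had 0 higher and 16 lower (median -0.92), and 5 higher and 4 lower on the narrower scale (median -0.11).

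Along the LSC, the central 42 bins met the SSC relatively more in EGS than in nox. Contacts per pair of the outer 21 LSC bins at each end over those of the central 42 were 0.956, 0.965, 0.924 and 0.924 in EGS 1 to 4, against 1.11, 1.07, 1.23 and 1.202 in nox 1 to 4. Ends of 21 bins were below the middle in each EGS library and above it in each nox library. Means were 0.942 ± 0.0214 in EGS and 1.15 ± 0.0745 in nox (SD, n = 4 each; two-sided exact permutation, p = 0.0286, adjusted 0.0429). Without nox 3 and 4 the difference was -0.149. The call did not hold with ends of 10 bins (a difference of -0.034, adjusted p = 0.549 by exact permutation). On the balanced map the difference was -0.056 (adjusted p = 0.214 by exact permutation). Balancing evens bin totals, of which this ratio is made, so the balanced map could not test this call.

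The rectangle of LSC-SSC contacts was also divided into 12 LSC blocks by 3 SSC blocks. Of all 210 block pairs of the map, 62.4% differed in the edgeR fit, 32.9% higher and 29.5% lower in EGS. All 36 LSC-SSC block pairs fell in EGS, by log2 changes from -1.31 to -0.35 (median -0.77, against 0.019 over all block pairs). In 32 of the 36 the libraries of the groups did not overlap, against 54.8% of all block pairs. The largest decrease joined LSC 77001 to 84000, which carries ribosomal protein genes and rpoA, to the SSC from 122001 onwards, with 178, 83, 48 and 33 contacts in EGS, against 365, 213, 26 and 46 in nox. The other named block pairs joined the same LSC block to SSC 111001 to 117000 (-1.27), LSC 7001 to 14000 to the SSC from 122001 onwards (-1.28), and LSC 63001 to 70000 to SSC 111001 to 117000 (-1.18) and to the SSC from 122001 onwards (-1.14). The smallest decrease, picked out after its value was seen, joined LSC 49001 to 56000 to SSC 117001 to 122000, with 183, 119, 57 and 39 contacts in EGS, against 216, 154, 9 and 23 in nox.

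The size of the decrease varied along the LSC. Averaged over the 3 SSC blocks, the log2 change was -1.13 for LSC 7001 to 14000, -1.07 for 63001 to 70000 and -1.19 for 77001 to 84000. It was -0.53, -0.55 and -0.51 for the 3 consecutive blocks from 35001 to 56000, which carry psaA and psaB, for the core of photosystem I, and the atpB operon. On the scale of LSC-SSC contacts alone, 6 block pairs were higher and 7 lower, with log2 changes between -0.46 and 0.47.

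**Figure D4:**
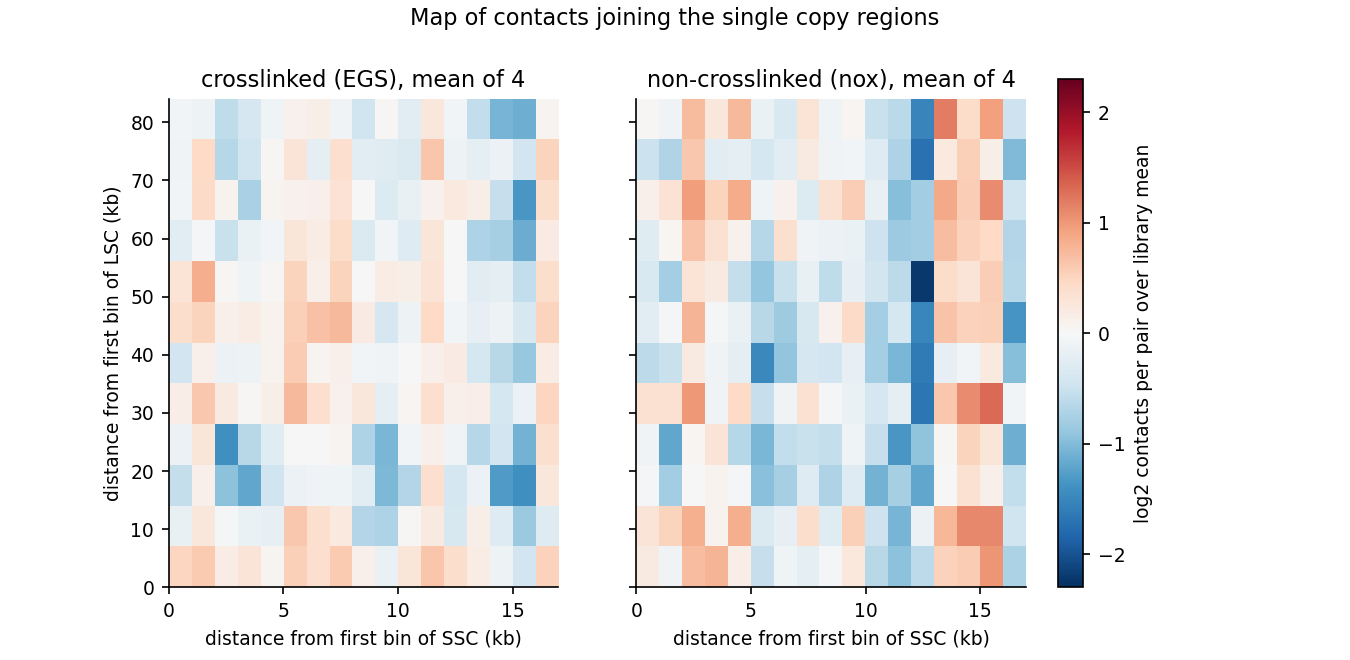
Map of LSC-SSC contacts in EGS (left) and nox (right), each the mean of 4 libraries, with distance from the first SSC bin on the x axis and from the first LSC bin on the y axis (kb). Colour gives log2 contacts per pair over the library's mean LSC-SSC pair, in LSC blocks of 7 bins; vertical stripes run through the whole LSC, at different SSC positions in the 2 groups.

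Single bin pairs were thin. Of 12089 pairs with any contact, 1.56% differed in the edgeR fit, 0.918% higher and 0.645% lower in EGS. This fit took pairs at all distances, so its scale is not that of the bin totals and block pairs. Of the LSC-SSC pairs, 45 fell in EGS and 0 rose, or 3.15% of them, and 281 had an unadjusted p under 0.05 in the same fit. DESeq2 called 25 after adjustment, with 105 unadjusted. Neither the unadjusted counts nor the DESeq2 calls were taken over all pairs. The libraries of the groups did not overlap in 7% of LSC-SSC pairs and in 9.33% of all pairs. Of the 45, 38 involved the rpl32 bin or the ycf1 bins from 124001 to 127000. The petL and petG bin held 9 of the 45 and the trnC bin 4. These SSC and LSC bins had the largest falls in total in the same counts, so this concentration is not a separate result. In simulated counts of this depth, 0% of 200 pairs changed 2-fold were recovered, so changes of that size at single pairs were not detectable.

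The petL and petG bin with SSC bin 119001 to 120000 (ndhI and ndhA) had 0 contacts in all 4 EGS libraries, against 16, 7, 2 and 4 in nox 1 to 4. Scaled on contacts over 5 kb, the ratio of EGS to nox in counts summed over libraries had an exact 95% upper limit of 0.11, which covers counting error only. In the edgeR fit, which took pairs at all distances, the adjusted p was 0.000406. The same LSC bin with the ycf1 bin from 126001 had 0, 1, 0 and 0 contacts in EGS, against 27, 24, 3 and 3 in nox. The ratio of EGS to nox was 0.014, with an exact 95% counting interval of 0.00035 to 0.083. With the ycf1 bin from 125001 it had 2, 0, 1 and 0 contacts in EGS, against 26, 22, 0 and 5 in nox, and with the rpl32 bin 5, 2, 1 and 0 in EGS, against 34, 13, 7 and 4 in nox.

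The other named decreases were of trnC with the ycf1 bin from 125001, with 0, 1, 0 and 0 contacts in EGS, against 20, 9, 4 and 3 in nox, and the bin of rps2 and rpoC2 (15001 to 16000) with the ycf1 bin from 126001, with 0, 1, 0 and 0 in EGS, against 19, 6, 2 and 2 in nox. The pair with most contacts in EGS joined trnV to the ndhF bin from 112001, with 23, 8, 4 and 3 contacts in EGS, against 7, 3, 0 and 1 in nox, and it did not pass the test (log2 change 1.47, edgeR adjusted p = 0.220). Nor did the next highest in EGS, trnY and trnE (30001 to 31000) with the ycf1 bin from 127001, with 10, 12, 2 and 3 contacts in EGS, against 8, 11, 2 and 0 in nox, and trnV with the bin of ndhE and ndhG from 118001, with 10, 9, 1 and 6 in EGS, against 13, 5, 0 and 1 in nox. The call ended for the trnC pair without EGS 1 (edgeR adjusted p = 0.0587) and for the rps2 and rpoC2 pair without EGS 1 (0.151), without nox 1 (0.0688) or without TMM scaling (0.0773), and none of the 6 pairs named here that fell passed within the 4 shallower libraries. Leaving out 1 library gave 7, 13, 12 and 25 called pairs without EGS 1 to 4, against 13, 8, 44 and 28 without nox 1 to 4, each a decrease. The count also depended on depth: 209 fell without nox 3 and 4, 158 fell and 1 rose within the 4 deeper libraries, and within the 4 shallower ones 0 fell and 1 rose. Calls over all pairs of the map were counted in the main fit alone, so these counts have no background beside them.

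Inside the rectangle, counts lay near the product of the bin totals on either side, with nox 2 the farthest from it. The chi-square per degree of freedom against that product was 1.07, 1.01, 1.05 and 1.02 in EGS 1 to 4, against 1.05, 1.18, 1.08 and 1.03 in nox 1 to 4, where 1 is expected of counting error. Every value was above 1, that of nox 2 the most, so the product did not describe all libraries equally well. No test of these departures was made. The profile of LSC bins with the SSC also went with that of the same bins with LSC bins 28 kb or more away (r = 0.904 in EGS and 0.961 in nox, across 84 bins). The profile of SSC bins with the LSC went with that of the same bins with the repeat (r = 0.832 in EGS and 0.759 in nox, across 17 bins). The points share library, depth and the base composition of each bin, so the values are descriptions. Between libraries, SSC profiles correlated at 0.705 to 0.922 within EGS, 0.875 to 0.965 within nox and -0.758 to -0.445 between EGS and nox, across 17 bins.

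Whether an SSC end meets an LSC end more often was measured by an orientation index. Contacts were summed in 4 windows, from the outer 21 LSC bins and the outer 8 SSC bins at each end. The index is the log2 ratio of the windows that adjoin in the map orientation (LSC left with SSC right, LSC right with SSC left) over those that adjoin in the flipped one, and bin totals cancel in it. Summed over libraries, the left LSC end had 1776 contacts with the left SSC end and 1514 with the right SSC end in EGS, and the right LSC end had 1621 and 1483. In nox the left LSC end had 2472 contacts with the left SSC end and 2316 with the right one, and the right LSC end had 2443 and 2314.

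The index showed no detectable preference in either group, though by the gauges given below little could have been detected in nox. It was -0.17, 0.016, 0.014 and -0.28 in EGS 1 to 4, against 0.011, -0.088, 0.38 and -0.13 in nox 1 to 4. In all 8 libraries the 95% counting interval held 0, and signs were mixed in both groups. Summed counts gave -0.10 (interval -0.24 to 0.040) in EGS and -0.016 (interval -0.13 to 0.10) in nox. The means were -0.11 ± 0.15 in EGS and 0.045 ± 0.23 in nox (SD, n = 4 each), and their difference of -0.15 was no larger than the replicate spread (p = 0.371, two-sided exact permutation, 0.446 adjusted). Leaving out nox 3 and 4 gave a difference of -0.067 and a nox mean of -0.039. By end, where bin totals do not cancel, 51.8% ± 1.12 of the left SSC end's contacts with either LSC end were with the left one in EGS and 48.9% ± 2.66 in nox. For the right SSC end it was 49.9% ± 2.62 in EGS and 49.6% ± 4.31 in nox (SD, n = 4 each). The left end's share was above 50% in all 4 EGS libraries (50.99% to 53.4%), and in EGS 1 its 95% Wilson interval, 50.9% to 55.9%, did not hold 50%. The right end's interval in nox 4, 38.0% to 49.7%, did not hold it either.

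How large the index could be was gauged from the decay of LSC-LSC contacts over the same distances. If all copies had the map orientation and LSC-SSC contacts decayed as LSC-LSC contacts do, the index would be 0.24 ± 0.018 in EGS (0.22 to 0.26) and 0.00097 ± 0.12 in nox (SD, n = 4 each). Summed counts gave 0.243 for EGS, above the upper bound of the summed EGS index, 0.040. That bound covers counting error only and not the spread between libraries. By library, the intervals of EGS 2 (-0.249 to 0.281) and EGS 3 (-0.353 to 0.381) held their own values for this gauge, 0.260 and 0.241. Those of EGS 1 and 4 did not. With all copies flipped the sign turns, and the same gauge gives -0.260 to -0.216 over the EGS libraries. The lower bound of the summed EGS index, -0.244, reaches this range, so on this gauge an all-flipped population was not separated from an equal mixture in EGS. With LSC-LSC contacts taken from the balanced map, the index for all copies in the map orientation was 0.048 ± 0.028 in EGS and 0.051 ± 0.19 in nox. This EGS value is close to the upper bound of the summed EGS index, 0.040. The curve as counted still carries LSC bin totals, which cancel in the index, so the balanced gauge is the closer match to it. The balanced EGS value was smaller than the counting SE of the summed EGS index, 0.072. Over nox libraries the gauge ran from -0.086 to 0.18 as counted and from -0.071 to 0.33 balanced. The nox index could thus not tell a single orientation from an equal mixture. An equal mixture gives an index of 0. Distance made little difference over this range, and only in EGS was the mean lower at the longer distances. LSC-LSC pairs in EGS averaged 11.5 contacts (summed over 4 libraries) at 28 to 45 kb, 10.03 at 46 to 61 kb and 10.01 at 62 to 77 kb, and in nox 10.2, 10.6 and 10.8.

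Distance was also read off the map in either orientation. Observed LSC-SSC contacts over the product of bin totals, at 28 to 45 kb, were 0.979 ± 0.0068 in EGS and 0.993 ± 0.0070 in nox for the map orientation, and 1.01 ± 0.016 in EGS and 0.994 ± 0.041 in nox for the flipped one (SD, n = 4 each). At 46 to 61 kb they were 1.03 ± 0.018 in EGS and 1.03 ± 0.015 in nox for the map orientation, and 0.998 in EGS and 1.001 in nox for the flipped one. At 62 to 77 kb they were 0.983 in EGS and 0.972 in nox for the map orientation, and 0.994 in EGS and 1.00 in nox for the flipped one. In the map orientation the class of 46 to 61 kb was thus above both others on average and above that of 62 to 77 kb in all 8 libraries, with 1.054 and 0.961 in EGS 2 as the widest gap among EGS libraries and 1.049 and 0.955 in nox 4 as the widest among nox libraries. The nearest class, 28 to 45 kb, was not above the middle one in the map orientation in any library.

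**Figure D5:**
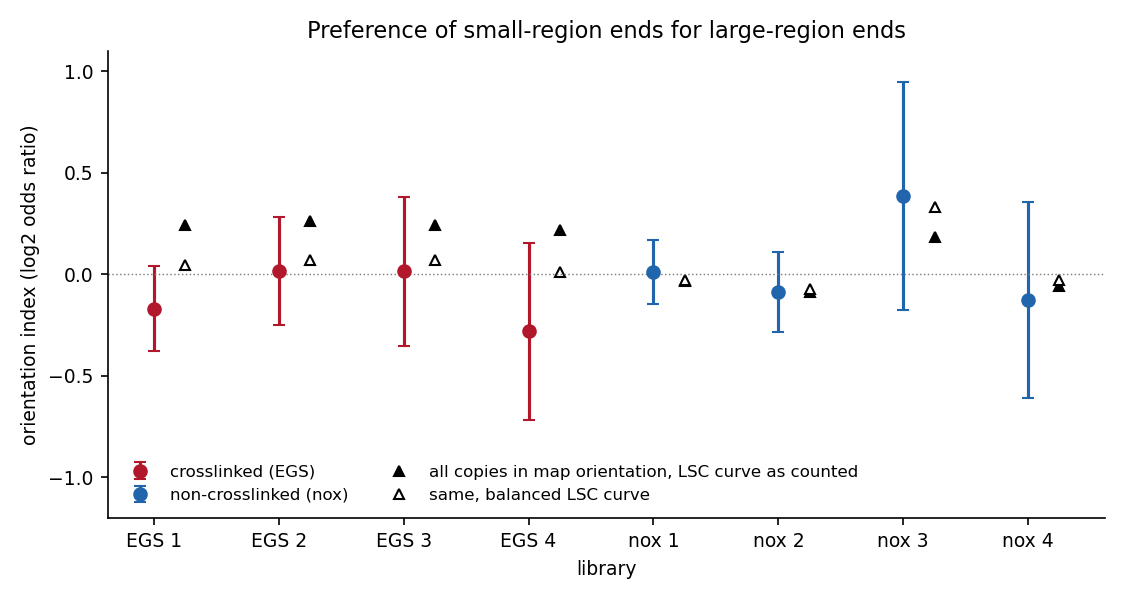
Orientation index of each library (log2 odds ratio, y axis; above 0 the map orientation has more contacts) for EGS 1 to 4 (red) and nox 1 to 4 (blue), with 95% counting intervals. Triangles give the index if all copies had the map orientation, from LSC-LSC contacts as counted (filled) or balanced (open); every interval crosses 0.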

How the data were processed

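The authors deposited 1 table of raw contact counts for every pair of 1-kb bins in 8 libraries, with no normalization. Per the submitters' processing notes, Trim Galore 0.4.1, Juicer and the build TAIR10 were used; filters, and the treatment of reads from the repeat, are not given in the sources used here. Region borders followed the bin ranges above. Gene names came from RefSeq TAIR10.1 (129 plastid genes), with no coordinate printed; positions of 8 repeat gene pairs summed to 238.65 kb, against 238.67 kb from the contacts.

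Members and gene lists were chosen with earlier results of these data known. Bin-by-region totals, block pairs and single pairs were fitted on the whole table with edgeR 4.0.16 (quasi-likelihood, TMM, Benjamini-Hochberg, threshold 0.05; R 4.3.3). The totals and block pairs took contacts over 5 kb, and the single pairs contacts at all distances. Library measures were compared by exact permutation over 70 assignments, adjusted over 6 measures (Python 3.11.15, scipy 1.17.1). Named LSC bins, block pairs and single pairs are those with the largest changes past the threshold (up to 5 each way), for LSC bins and block pairs with no overlap between the groups, and for LSC bins and single pairs also the 3 highest in each group. An LSC bin that met the rule is not reported here. On simulated data, 99% of 100 totals changed 2-fold among 465 were recovered, and 100% of 40 block pairs among 210. Same-numbered EGS and nox libraries did not deviate together (r from -0.28 to 0.28 over 182 features), so replicate numbers were not taken as pairs. Alternatives covered scaling, filters, DESeq2 1.42.0, windows, balancing, depth and left-out libraries.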

Additional observations from a re-analysis of the deposited data

Results flagged for a closer look

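Of 66 groups of 4 libraries examined, 3 held a library far from the others; chance alone flags about 1 group in 20. EGS 4 gave the first ndhF bin, 111001 to 112000, 4.43% of its LSC-SSC contacts, against 6.24% to 6.49% in the other EGS libraries. EGS 4 gave the bin of trnL and ccsA, 114001 to 115000, 6.11%, against 4.56% to 4.74% in the other EGS libraries. Nox 3 gave the trnV bin of the LSC, 51001 to 52000, 0.396%, from 3 contacts, against 0.947% to 1.01% in the other nox libraries.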

How the results depend on the processing

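Against nox, the deeper libraries alone (replicates 1 and 2), the shallower alone and the set without nox 3 and 4 (chosen after seeing the data) gave EGS differences of -8.35, -14.5 and -8.35 points in share over 5 kb, -0.302, -0.573 and -0.299 in the ratio to matched LSC-LSC pairs, and -0.131, -0.292 and -0.149 in LSC ends over middle. Without nox 3 and 4 the share of all contacts differed by -0.575 points. Balancing turned the difference in matched ratio to 0.0195 and that in SSC left over right to -0.0498, and gave -0.0556 for LSC ends. Balancing evens bin totals, so it could not test the SSC left over right and LSC ends calls. For the matched ratio, which largely rests on bin totals, it was not a separate test. The cause was not tested. Leaving out border bins gave 0.0413 for SSC left over right, and LSC ends of 10 bins -0.0336. With the replicate block (paired exact test, smallest possible p 0.125) differences were -11.4, -0.437, 0.146 and -0.211, none able to pass; the numbers do not pair the libraries, and 1 of 4 EGS libraries correlated best with its own number. The replicate block left 69 of 101 bin totals, 36 block pairs and 58 single pairs called.

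Scaled on LSC-SSC contacts alone, 13 block pairs differed, and bins from 112001, 116001, 117001, 118001 and 121001 turned to 0.434, 0.796, 0.402, 0.208 and 0.295. Blocks of 14 LSC bins gave 18 of 18 called. Single pairs called were 4 without TMM, where the median log2 change of all pairs was 0.73 and not 0.26, 25 with DESeq2 (1 higher), 159 in deeper and 1 in shallower libraries, and 209 without nox 3 and 4. Leaving out 1 library gave 7 to 44 single pairs, 64 to 71 bin totals and 35 to 36 block pairs. It moved the difference in share of all contacts between -0.230 and 0.198 and the orientation difference between -0.208 and -0.0377, with no call, and kept the calls of the 4 library measures that passed. The filter filterByExpr left no LSC-SSC single pair to test. Calls over the whole map were not counted for these alternatives. Contacts per pair limit single pairs and the index in nox 3 and 4 most.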
